A study of Homo sapiens with 6 samples.

Results

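The miRNAs of the imprinted 14q32 (DLK1-DIO3) cluster were followed in small RNA libraries of A549 cells with and without SMARCA4. Members were chosen by name, as every listed miRNA, of either arm, whose number is among 47 numbers of the cluster. That rule used no measured value. It found 67 members, from 45 of the 47 numbers, among the 787 mature miRNAs listed. Of these, 39 were 3p arms, 25 were 5p arms and 3 carried no arm in their name.

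A549 is an established cell line from a human lung adenocarcinoma. The 3 empty vector libraries came from cells given the plasmid pcDNA4, and the 3 SMARCA4 libraries from cells given pcDNA4-SMARCA4, which the labels describe as restoring SMARCA4. Both groups were transfected with Lipofectamine 2000, and the labels place both at 48 h after transfection. The labels do not say which share of cells took up plasmid, so each library may mix cells with and without it, and SMARCA4 mRNA was not analysed here. SMARCA4, or BRG1, is an ATPase of the SWI/SNF complex, which moves nucleosomes.

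The DLK1-DIO3 domain is imprinted. Its protein-coding genes, DLK1, RTL1 and DIO3, are transcribed from the paternal chromosome, and its non-coding RNAs, among them MEG3, MEG8 and the miRNAs, from the maternal one. The miRNAs are thought to be cut from long maternal transcripts, so hairpins of very different mature level can share a precursor. They are best known from placenta, embryo and brain, and their level varies widely between tumours. A miRNA finds its targets mainly through its seed, bases 2 to 8 counted from the 5′ end, and each hairpin can give a mature strand from its 5p arm, its 3p arm or both.

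By name, 66 of the 67 members were matched to RefSeq, on 47 hairpins, all on the plus strand of chromosome 14 (GRCh38.p14). Those hairpins fall into an upstream group from MIR770 to MIR370, with mature sequences at chr14:100852409-100911207, and a downstream group from MIR379 to MIR656, at chr14:101022071-101066786. The groups hold 16 and 51 members and are 111 kb apart. In GENCODE 29, 5 upstream hairpins lie antisense to an exon of RTL1, whose transcript they can cleave. MIR370 and the first hairpins of the downstream group, 13 in all, lie in MEG8. MIR381HG holds 5 downstream hairpins, MEG9 holds 6, and 14 lie inside no other annotated gene, MIR654 among them.

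The sequences of the hairpins on which the results turn are given first, 5′ to 3′ from RefSeq, with the seed in capitals. They are both arms of miR-654, miR-411, miR-379 and miR-431, with miR-381-3p and miR-410-3p.
miR-654-3p: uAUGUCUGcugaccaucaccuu
miR-654-5p: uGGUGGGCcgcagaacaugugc
miR-411-5p: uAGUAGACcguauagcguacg
miR-411-3p: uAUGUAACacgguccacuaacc
miR-379-5p: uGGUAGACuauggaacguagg
miR-379-3p: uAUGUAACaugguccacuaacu
miR-381-3p: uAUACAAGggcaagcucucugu
miR-431-5p: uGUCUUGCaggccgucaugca
miR-431-3p: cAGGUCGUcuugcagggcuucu
miR-410-3p: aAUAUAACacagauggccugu
The members were diverse in seed. The 66 sequences held 60 different seeds, and 6 seeds were each shared by 2 members. miR-379-3p and miR-411-3p, from neighbouring hairpins, are such a pair, with the seed AUGUAAC. Only 4 members had a seed that a listed miRNA outside the cluster also carries. That count covers the 689 of 787 listed miRNAs that were matched to RefSeq.

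Recovered read totals ranged from 701885 to 1079944 in 5 libraries and reached 7274329 in SMARCA4 replicate 2, which is 8.33 times the mean of the others. Values are normalized read counts, in which 1 read is worth 0.422 in SMARCA4 replicate 2 and between 1.64 and 2.61 elsewhere. That library stood apart from the other SMARCA4 libraries. Deviations were taken on log2(value + 1), from the mean of the 2 partners of a library on that scale. Of 421 miRNAs with a mean of at least 10, 11.4% differed at least 4-fold there, against 1.66% to 2.85% in the other libraries. Results that it moves are therefore also given without it. Of 6 mesenchymal markers 5 were listed, and their summed level was 24.5 to 51.3 in empty vector and 31.4 to 122 in SMARCA4 libraries. Nearly all of it was miR-143-3p, while miR-145-5p, miR-199a-5p, miR-199b-5p and miR-214-3p had at most 1 read in any library. The 6 listed epithelial markers summed to 356 to 677 and 425 to 623, but single markers moved: miR-141-3p rose from a mean of 31.4 to 182 and miR-203a-3p from 4.79 to 39.7 (limma adjusted p = 0.0124 each), while miR-200b-3p was at 422 and 190 (0.109). The 2 listed neuron markers, nearly all miR-9-5p, summed to 141 to 146 in empty vector and 146 to 427 in SMARCA4 libraries, with the highest value in SMARCA4 replicate 2. The 3 listed blood cell markers, nearly all miR-486-5p, summed to 5621 to 7213 and 7962 to 14458, without overlap, and none of them passed. Both listed muscle markers were at 0. The part of these levels in the results was not tested.

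The cluster was expressed in A549 cells at a modest level, and most of it came from a few strands. miR-381-3p had the highest mean over all libraries and ranked 62 among all listed miRNAs, followed by miR-411-5p, miR-409-3p, miR-410-3p and miR-654-3p. These 5 held 65.5% to 73.5% of the summed cluster in every library. All of them lie in the downstream group. Means were at least 1000 for 3 members, between 100 and 1000 for 8, between 10 and 100 for 35 and under 10 for 21. At least 1 read was seen in every library for 47 members. The number detected was 58 to 64 per library, yet only 46.7 would be expected in SMARCA4 replicate 2 if it were drawn down to the 701885 reads of the shallowest library, where the others gave 57.2 to 62.0.

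The first comparison asks whether the cluster as a whole differed with SMARCA4. Its members together held 0.426%, 0.590% and 0.527% of the reads in the empty vector libraries, in replicate order, and 0.271%, 0.292% and 0.338% in those with SMARCA4. Every SMARCA4 library lay below every empty vector library. Means were 0.515% ± 0.0826 and 0.300% ± 0.0342 (SD, n = 3 each). An exact permutation test (two-sided) gave p = 0.1, which no design of 3 against 3 can go under. The 95% Wilson intervals, which cover counting error only, were at most 0.0157 percentage points to either side of a share. The separation depends on the scale. In summed normalized counts the values were 7088, 10483 and 9309 against 4973, 8974 and 6125, the groups overlapped, and the exact permutation p was 0.2. SMARCA4 replicate 2, at 8974, was the library that crossed. Bringing all libraries to the same total shifts the median over the 637 miRNAs tested by −0.30 (log2). The deposited total was 3.07e+06 in SMARCA4 replicate 2, and it was 1.66e+06 to 1.84e+06 in the other libraries. The part of this scaling in the lower share was not tested.

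Both parts of the cluster had lower shares with SMARCA4. The downstream group held 0.450% ± 0.0786 of the reads in empty vector and 0.250% ± 0.0283 in SMARCA4 libraries (SD, n = 3 each), which is 1.80-fold lower. For the upstream group the shares were 0.0644% ± 0.00719 and 0.0499% ± 0.00614, which is 1.29-fold lower. Neither overlapped between the groups of libraries, and each had an exact permutation p of 0.1 (0.1 after adjustment over the 3 shares). In normalized counts the upstream sum was 1119 ± 158 and 1119 ± 383, with no difference in the mean. That equality rests on SMARCA4 replicate 2, at 1543. SMARCA4 replicates 1 and 3 were at 800 and 1013, and the empty vector libraries at 952, 1139 and 1266. As a part of the cluster the upstream group was larger with SMARCA4, at 16.1%, 17.2% and 16.5% against 13.4%, 10.9% and 13.6% (exact permutation p = 0.1). No library scaling can alter that ratio.

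**Figure D1:**
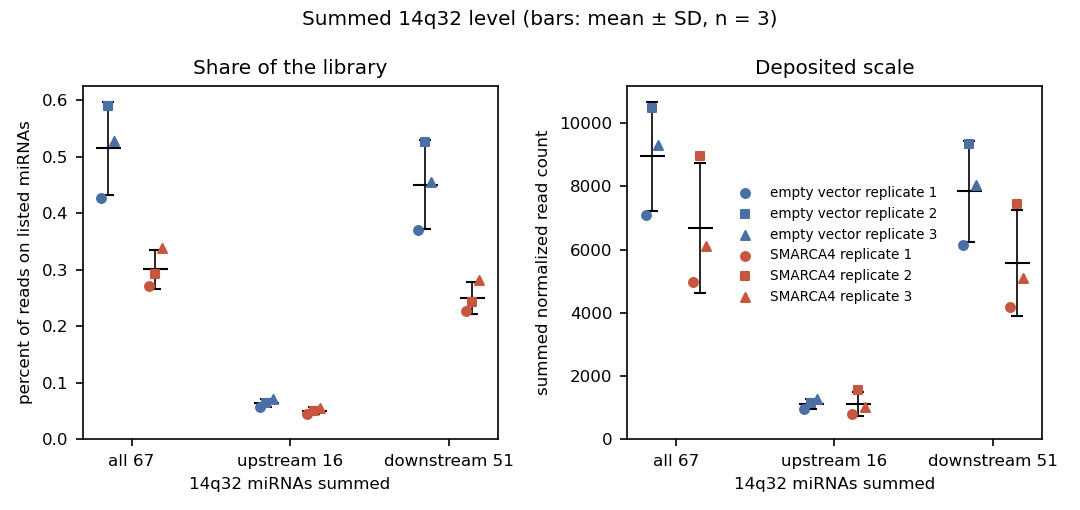
Summed level of all 67 cluster miRNAs and of the 16 upstream and 51 downstream members, as percent of the reads of the library (left) and as summed normalized read count (right); points are libraries, and bars are the mean ± SD of 3. The shares do not overlap between groups, whereas on the deposited scale SMARCA4 replicate 2, at 8974 for all members, lies among the empty vector libraries.

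Each member was then tested on its own, with limma over the 637 miRNAs that had a mean of at least 1, which kept 66 members and left out miR-381-5p. At an adjusted p under 0.05, 1 of the 66 members fell, beside 0.471% of all miRNAs tested, and 0 rose, beside 0.942% (1.41% in either direction). At an unadjusted p under 0.05, 11 members were lower and 3 higher, where 11.3% of all miRNAs tested were lower and 11.3% higher. The groups did not overlap for 15 members that were lower (22.7%, beside 15.2% of all) and for 4 that were higher (6.06%, beside 15.9%). The median log2 fold change was −0.27 over the members and −0.05 over all miRNAs tested. The values of the members ranged from −3.28 to 2.24. miR-889-5p had no read in any SMARCA4 library, but only 1, 0 and 3 reads in the empty vector libraries, so the groups overlapped. The median without miR-889-5p was −0.24. When all libraries were brought to 1 common total the medians were −0.55 and −0.35, and the share below 0 went from 66.7% to 78.8% of the members and from 51.6% to 63.6% of all miRNAs. The members' median stayed below that of all miRNAs, by 0.19 to 0.41, in every setting tried.

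miR-654-3p was the member that fell. Its normalized counts were 1101, 744 and 1457 in the empty vector libraries and 230.1, 276 and 307 in those with SMARCA4, in replicate order as throughout. All SMARCA4 libraries lay well below all empty vector libraries, and the deep library did not stand apart. The group means, 1101 ± 357 and 271 ± 38.7 (SD, n = 3 each), differed 4.06-fold (log2 fold change −1.97, SE 0.32, limma adjusted p = 0.0128). Within the cluster it went from 15.5%, 7.09% and 15.7% of the sum to 4.63%, 3.08% and 5.01%. The call was lost when any of 4 libraries was left out. With empty vector replicate 1 left out the limma adjusted p was 0.104, and with empty vector replicate 3 left out 0.101. It was 0.0803 when SMARCA4 replicate 1 was dropped and 0.0922 when replicate 3 was, with log2 fold changes from −2.07 to −1.75. It was also lost without the mean-variance trend (adjusted p = 0.0562).

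Whether the other arm of the miR-654 hairpin moved with it could not be told from its few reads. miR-654-5p was at 13.2, 7.61 and 31.1 in empty vector and 7.84, 38.0 and 14.2 in SMARCA4 libraries, so the groups overlapped. Its log2 fold change was 0.14 (SE 0.70, limma adjusted p = 0.943), and it turned to −0.44 without SMARCA4 replicate 2. The 5p reads made up 1.18%, 1.013% and 2.09% of both arms in empty vector and 3.30%, 12.1% and 4.41% in SMARCA4 libraries. These shares did not overlap, with an exact permutation p of 0.1 (0.317 after adjustment). They rest on 3 to 19 reads of the 5p arm per library, and on 90 in SMARCA4 replicate 2.

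Apart from miR-654-3p, none of the 10 most abundant members passed. miR-381-3p was at 1165, 3026 and 1527 against 959.6, 1976 and 1192, with overlap and a wide spread in both groups (log2 fold change −0.42, limma adjusted p = 0.567). miR-411-5p, at 1180.4, 1556 and 1620.4 against 965, 1437 and 1162, also overlapped (log2 fold change −0.29, limma adjusted p = 0.549). miR-889-3p lay at 209, 399 and 275 against 152, 259.8 and 194 (limma adjusted p = 0.402). These 3 strands were lower in the SMARCA4 mean, but none passed the test. Of the upstream 5p strands among the 10 most abundant members, miR-493-5p was at 115, 137 and 159 against 112, 397 and 116 (limma adjusted p = 0.704). miR-431-5p was at 107, 221 and 111 against 70.6, 150.4 and 125 (limma adjusted p = 0.678). Both overlapped between groups.

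The hairpins of miR-409-3p and miR-410-3p lie close together in MEG9, and neither strand passed. miR-409-3p was at 1209, 1664 and 1512 in empty vector and at 538.6, 1428 and 635 in SMARCA4 libraries (log2 fold change −0.88, limma adjusted p = 0.213). SMARCA4 replicate 2 was the one that overlapped, and without it the limma adjusted p was 0.00943 and the log2 fold change −1.31, while with any other single library left out the adjusted p was 0.328 to 0.449. miR-410-3p was at 481, 719 and 631 against 617, 1184 and 715 (log2 fold change 0.42, limma adjusted p = 0.470). As a part of the cluster, miR-410-3p was steady within groups, at 6.78%, 6.86% and 6.78% of the sum in empty vector and 12.4%, 13.2% and 11.7% in SMARCA4 libraries. That last comparison was chosen after the values were seen and is given without a test.

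**Figure D2:**
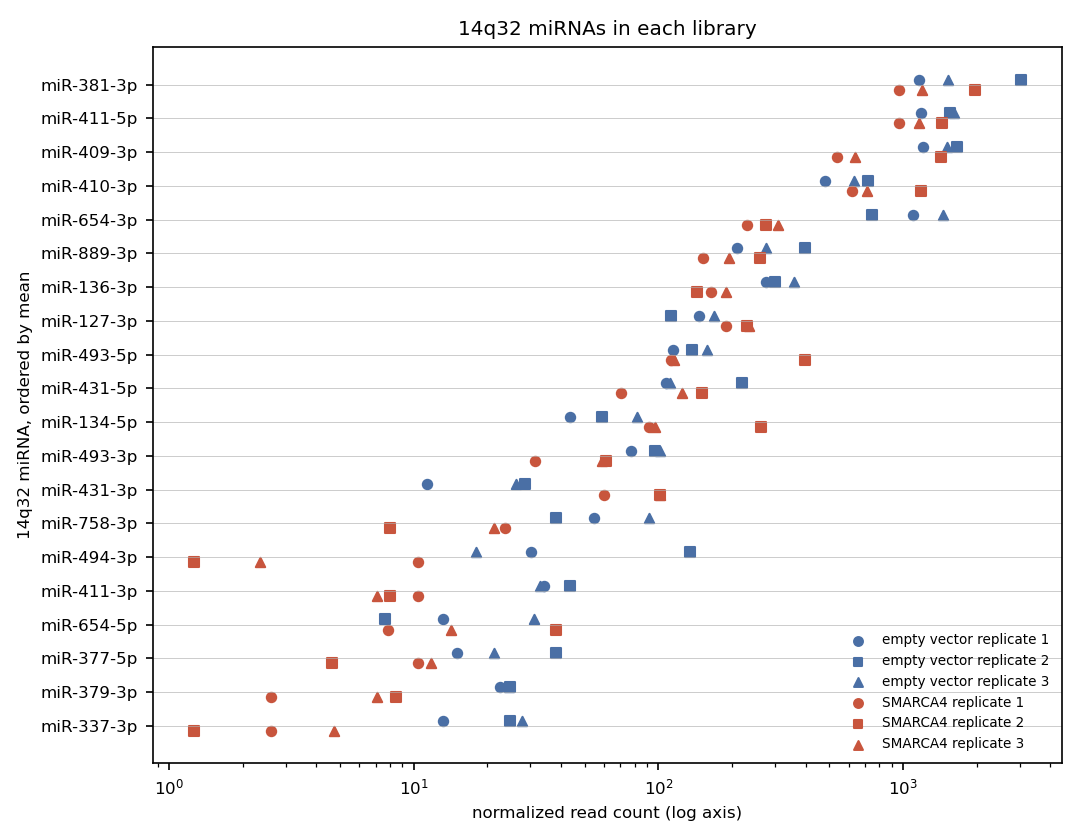
Normalized read count (log axis) in each library of the 20 tested members named by the fixed rule, ordered by mean; blue points are empty vector and red points SMARCA4 libraries, with the replicate given by the shape. miR-654-3p is the abundant strand with a clear gap between groups. Other wide gaps are those of miR-431-3p, which is higher with SMARCA4, and of some scarce strands, such as miR-337-3p at 1.27 to 4.72 with SMARCA4.

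Below these, some scarcer strands were lower in all SMARCA4 libraries without passing the test. Over the cluster, miR-654-3p included, 11 of 39 3p strands and 4 of 24 5p strands tested were lower without overlap. The share over all miRNAs tested was 15.2%. The pair that shares the seed AUGUAAC is an example. miR-411-3p was at 33.9, 43.7 and 32.7 in empty vector and 10.5, 8.03 and 7.08 in SMARCA4 libraries (log2 fold change −1.99 with SE 0.43, limma adjusted p = 0.0656). By comparison miR-379-3p was at 22.6, 24.7 and 24.5 against 2.61, 8.45 and 7.08 (log2 fold change −1.94, SE 0.53, limma adjusted p = 0.0859). Both had tight empty vector values and no overlap between groups. Their means were 4.32-fold and 3.96-fold lower with SMARCA4, resting on 26 and 24 reads in the SMARCA4 group. Of these reads, 19 and 20 were in SMARCA4 replicate 2. Without that library both passed (limma adjusted p = 0.0319 and 0.0390). They then rested on 4 and 3 reads of miR-411-3p and 1 and 3 of miR-379-3p in SMARCA4 replicates 1 and 3. In that setting 50 of 623 miRNAs passed, against 9 of 637 with all libraries. With any other single library left out, the limma adjusted p was 0.0999 to 0.188 for miR-411-3p and 0.177 to 0.224 for miR-379-3p. With all libraries kept, miR-411-3p passed with no filter, with a mean of at least 10 required and with array weights. It also passed by edgeR (adjusted p = 0.0498) and DESeq2 (0.0256). miR-379-3p then passed with array weights only. Its partner arm, miR-379-5p, was at 24.5, 24.7 and 36.0 against 20.9, 1.69 and 23.6, without overlap (limma adjusted p = 0.340).

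Near them on the chromosome, miR-758-3p, reported to repress the cholesterol exporter ABCA1, was at 54.7, 38.0 and 91.6 against 23.5, 8.03 and 21.2 (limma adjusted p = 0.109). miR-494-3p was at 30.2, 135 and 17.99 against 10.5, 1.27 and 2.36 (limma adjusted p = 0.0822). Its groups did not overlap, but empty vector replicate 2 stood far above the other libraries and the whole SMARCA4 group held 8 reads. Its log2 fold change of −3.28 was the lowest in the cluster, and it lay between −4.15 and −2.44 over the settings tried. miR-377-5p, further downstream, was at 15.1, 38.0 and 21.3 against 10.5, 4.65 and 11.8 (limma adjusted p = 0.188).

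In the upstream group 3 of 16 members were lower without overlap, beside 15.2% of all miRNAs tested, and all 3 are 3p strands. miR-337-3p was at 13.2, 24.7 and 27.8 against 2.61, 1.27 and 4.72 (log2 fold change −2.60, limma adjusted p = 0.0656). It rests on 6 SMARCA4 reads, 3 of them in replicate 2, so the size is uncertain. Without SMARCA4 replicate 2 it passed (limma adjusted p = 0.0429), on 1 and 2 reads in replicates 1 and 3. With any other library left out it did not (limma adjusted p = 0.108 to 0.178). miR-136-3p, from a hairpin antisense to RTL1, was at 275, 300.5 and 359.7 against 165, 143 and 189 (log2 fold change −0.91, limma adjusted p = 0.110). It is the best sampled of these strands, with 482 reads in the SMARCA4 group, and the gap between groups was wider than the range within either. miR-493-3p was at 77.3, 97.0 and 101 against 31.4, 60.8 and 59.0 (log2 fold change −0.90, limma adjusted p = 0.203).

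Of the 4 members that were higher without overlap, beside 15.9% of all miRNAs tested, 3 meet the naming rule, miR-431-3p and miR-134-5p through their unadjusted p. None passed. miR-431-3p, antisense to RTL1, was at 11.3, 28.5 and 26.2 in empty vector and at 60.1, 101 and 102 in SMARCA4 libraries, 3.99-fold higher in the mean (log2 fold change 2.01, SE 0.47, limma adjusted p = 0.0656). Without SMARCA4 replicate 2 it passed (limma adjusted p = 0.0438, log2 fold change 1.88), and with any other library left out it did not (0.0999 to 0.193). miR-127-3p, another strand antisense to RTL1, was at 147, 112 and 168 against 188, 229.8 and 234 (log2 fold change 0.62, limma adjusted p = 0.257). miR-134-5p, known in neurons for repressing LIMK1 at synapses, was at 43.4, 59.0 and 81.8 against 91.5, 263 and 96.8 (log2 fold change 1.15, limma adjusted p = 0.199). SMARCA4 replicate 2 was far above the other libraries, and the log2 fold change without it was 0.66.

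**Figure D3:**
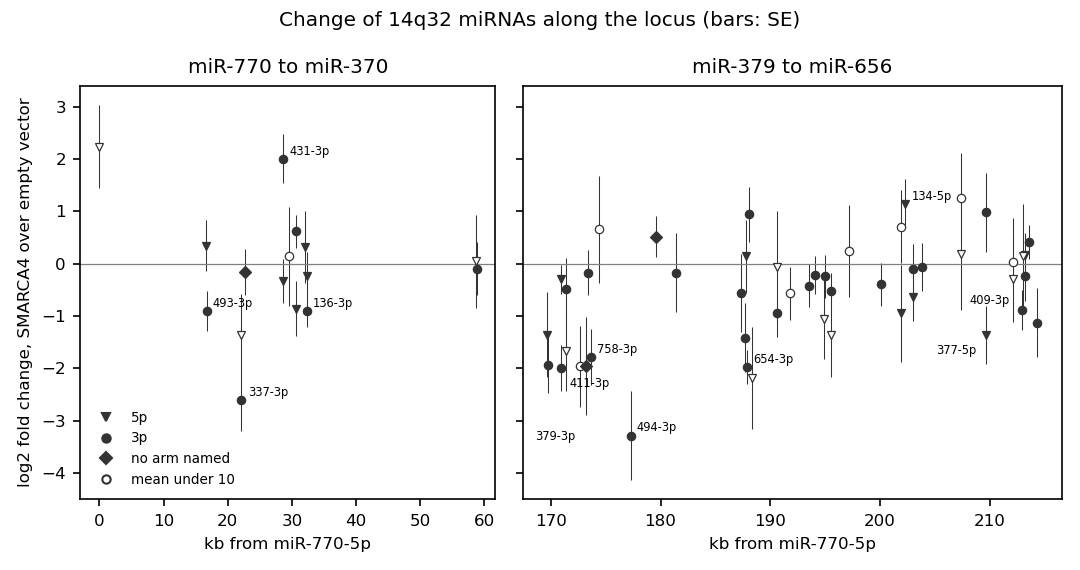
Log2 fold change (SMARCA4 over empty vector, limma) of the 65 tested members with a RefSeq position, against distance from miR-770-5p in kb; bars are standard errors, the shape gives the arm and open symbols are members with a mean under 10. Members with an unadjusted p under 0.05 and a mean of at least 10 are named, and in the downstream group they are lower except for miR-134-5p.

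Along the locus the lower members were spread over both groups. In the downstream group 35 of 50 tested members had a log2 fold change below 0 (median −0.34), and in the upstream group 9 of 16 (median −0.12), beside 51.6% of all miRNAs tested. By arm, the count was 27 of 39 for 3p strands (median −0.24) and 15 of 24 for 5p strands (median −0.30). No difference between these parts was tested.

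The arms of a hairpin come from 1 precursor, so their ratio is free of library scaling. Both arms were listed for 21 numbers, and 19 had a summed mean of at least 10. The 3p arm was the larger in both groups for 12 of the 19 and the 5p arm for 5. For 6 of the 19 the 5p share did not overlap between groups, which is close to the 32.3% of all hairpins in the table with the same minimum. Each of the 6 had an exact permutation p of 0.1, or 0.317 after adjustment over the 19, so none passed.

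The widest shift with ample reads was that of miR-431. Its 5p reads made up 90.5%, 88.5% and 81.0% of both arms in empty vector and 54.0%, 59.7% and 55.2% in SMARCA4 libraries, from 50 to 596 reads per library. The exact binomial 95% intervals, over counting error only, reached down to 70.9% in empty vector and up to 68.2% in SMARCA4 libraries. For miR-493 the share was 59.8%, 58.5% and 61.0% against 78.2%, 86.7% and 66.2%, so the 5p arm gained in relative terms. For miR-127 it was 10.3%, 25.3% and 11.2% against 4.0%, 7.48% and 5.71%. miR-377 went from 80.0%, 90.9% and 52.0% to 44.4%, 39.3% and 27.8%, on only 9 to 28 reads per library. In miR-411 the 5p arm dominated throughout, at 97.2%, 97.3% and 98.0% against 98.9%, 99.4% and 99.4%.

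**Figure D4:**
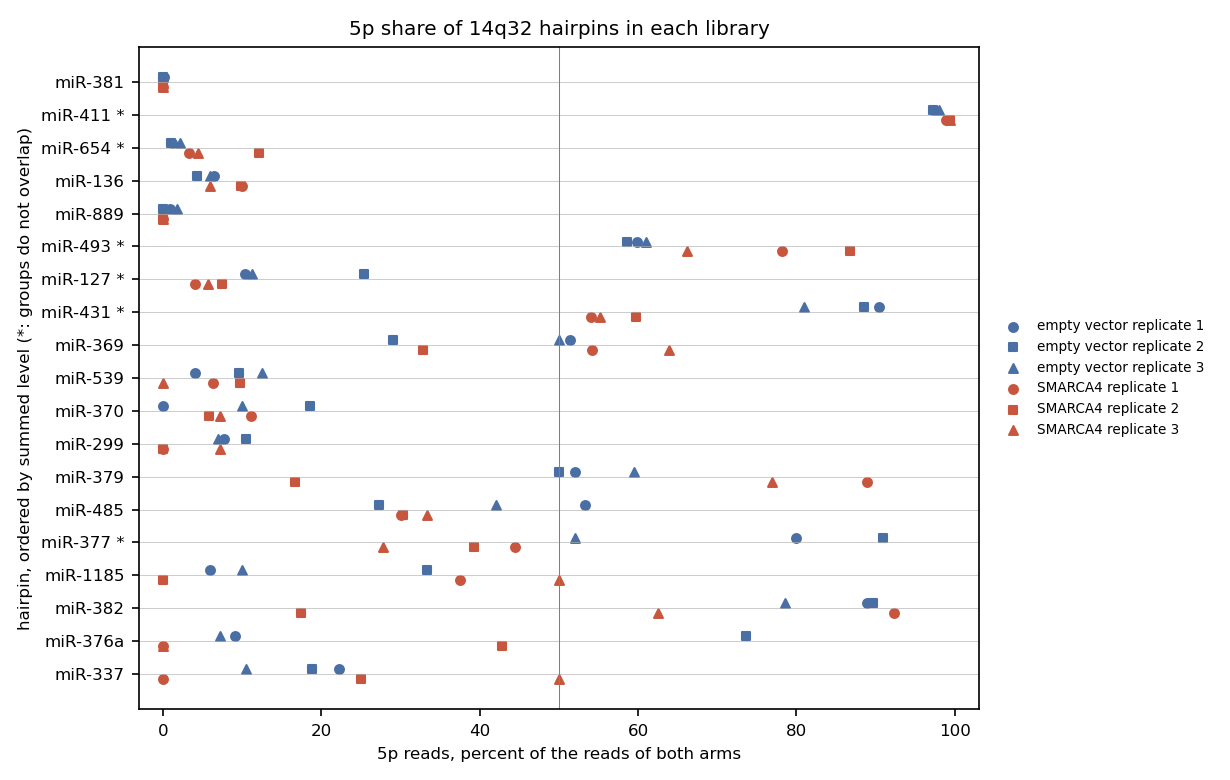
Reads of the 5p arm as percent of the reads of both arms, for the 19 hairpin numbers with a summed mean of at least 10; blue points are empty vector and red points SMARCA4 libraries, and a star marks those whose groups do not overlap. miR-431 moves from 81.0% or more to 59.7% or less, and miR-493 moves the other way.

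SMARCA4 replicate 2 differed from its partners in single members as well. As before, deviations were taken on log2(value + 1), here from the mean of SMARCA4 replicates 1 and 3 on that scale. Among the 46 members with a mean of at least 10, 4 were at least 4-fold lower in replicate 2 by that measure, and 1 was at least 4-fold higher. The 4 were miR-382-5p (31.4, 1.69 and 23.6 in SMARCA4 replicates 1, 2 and 3), miR-379-5p (20.9, 1.69 and 23.6), miR-376c-3p (23.5, 3.38 and 33.1) and miR-495-3p (13.1, 2.53 and 21.2). The higher one was miR-432-5p, at 34.0, 255 and 49.6. These members were named for this deviation after their values were seen. The share of such members was 10.9%, beside 11.4% of all miRNAs with that mean, of which 14 were lower and 34 higher. In that library the 5p share of miR-379 was 16.7%, where the other SMARCA4 libraries had 88.9% and 76.9%, and that of miR-382 was 17.4% beside 92.3% and 62.5%.

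The 46 members not named by the fixed rule had means from 1.13 to 88.5, and their smallest adjusted p was 0.141. Their groups did not overlap for 6 lower and 1 higher member, beside 15.2% and 15.9% of all miRNAs tested. Of miRNAs from other imprinted loci, 6 were listed and 3 could be tested. miR-335-3p, from the MEST locus, was at 683, 358 and 779.95 in empty vector and 376.5, 343 and 489 in SMARCA4 libraries (limma adjusted p = 0.401). miR-335-5p, its other arm, was at 213, 165 and 239 against 233, 70.6 and 253 (limma adjusted p = 0.710), and the third, miR-483-3p, had at most 2 reads in any library.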

How the data were processed

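Small RNA was sequenced from 6 A549 libraries after TruSeq library preparation, per the labels' protocols. The submitters' processing notes name bcl2fastq 2.18.0.12 and GRCh38. The trimmer, aligner and counter, and how multiply matching reads were assigned, were not given in the sources used here, so near-identical members may share reads. The authors deposited a normalized signal per miRNA, named for TMM scaling; 100% of the values were whole reads times 1 factor per library, within 1e-06 reads. A count of 0 allows 3 reads, worth 1.27 in SMARCA4 replicate 2 and 4.91 to 7.84 elsewhere.

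limma 3.58.1 in R 4.3.3 was fitted on log2(value + 1) with a mean-variance trend, over all miRNAs with a mean of at least 1, with Benjamini-Hochberg adjustment; it was tested on simulated data. Folds of means are on the deposited scale and log2 fold changes on log2(value + 1), which understates scarce miRNAs. edgeR 4.0.16 (quasi-likelihood) and DESeq2 1.42.0 on recovered reads were alternatives. Shares were compared by exact two-sided permutation. The design text describes independent biological replicates.

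Named members are those past the threshold, both arms of miR-654, miR-411 and miR-381, the 10 most abundant, and those with an unadjusted p under 0.05 and a mean of at least 10. Members, lists and rules were chosen with earlier results of these data known. Arms were paired by number; miR-376a-3p and miR-1185-5p each come from more than 1 hairpin.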

Additional observations from a re-analysis of the deposited data

How the results depend on the processing

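The number of members past the threshold (1, miR-654-3p) was 2 with no filter or with a mean of at least 10 required, 0 without the mean-variance trend, 10 with array weights (90 of all 637 miRNAs), 3 by edgeR (12 of all) and 6 by DESeq2 (47 of all), which left 237 adjusted p-values of all miRNAs undefined. By edgeR the members were miR-337-3p, miR-411-3p and miR-654-3p, and DESeq2 added miR-431-3p, miR-494-3p and miR-758-3p. Leaving out single libraries gave 0 to 6. The number was 6 of 65 without SMARCA4 replicate 2 (50 of all 623). It was 0 without empty vector replicate 1 or 3 or SMARCA4 replicate 1 or 3. In the settings with 0 calls, 11 to 14 of the 65 or 66 members tested had an unadjusted p under 0.05. Over all miRNAs, 102 to 135 of the 631 to 638 tested did, a similar share. A pseudocount of 0.5 or 5, the same total, median-of-ratios scaling and quantile normalization each called 1. With the replicate number as a block, 1 member was called as well (13 of all miRNAs, against 9). Same-numbered libraries are not known to be paired: their deviations from the group means correlated at 0.0731, 0.0882 and 0.0136, and 5 of the 6 libraries correlated best with their own number.

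Of 20 named members, 17 kept their direction in all 18 other settings. The log2 fold change of miR-493-5p turned to −0.066 with array weights and −0.25 without SMARCA4 replicate 2 (−0.25 to 0.66 with single libraries left out). That of miR-431-5p turned to 0.0088 without empty vector replicate 2 (−0.55 to 0.0088). That of miR-654-5p turned to −0.17 with the same total, −0.49 with array weights, −0.30 when empty vector replicate 2 was dropped and −0.44 when SMARCA4 replicate 2 was (−0.44 to 0.65). The cause was not tested. The shares of the cluster and of its downstream part were lower in all settings. That of the upstream part was lower with any library left out. On the deposited scale the upstream group means were equal within rounding, at 1119, with SMARCA4 replicate 2 at 1543 and replicates 1 and 3 at 800 and 1013. The number of hairpins whose 5p share did not overlap was 6 to 10 with single libraries left out, and 10 without SMARCA4 replicate 2. Fewer libraries make a lack of overlap easier to reach. The share over all hairpins was not computed in those settings, so the higher counts are not read as a result. Depth limits the scarce members, since 8 had under 3 reads in every SMARCA4 library.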

Other observations

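Among the shared seeds, miR-376a-3p and miR-376b-3p stood out for lying on opposite sides, each without overlap between groups. miR-487a-3p and miR-154-3p, which share the seed AUCAUAC, also differed in sign (log2 fold change −0.39 and 1.26), but both overlapped. miR-376a-3p and miR-376b-3p were picked after their values were seen, and the difference between them was not tested. Both carry the seed UCAUAGA and differ little beyond it.
miR-376a-3p: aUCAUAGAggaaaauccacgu
miR-376b-3p: aUCAUAGAggaaaauccauguu
miR-376a-3p was at 18.9, 9.51 and 21.3 in empty vector and 7.84, 1.69 and 9.44 in SMARCA4 libraries (log2 fold change −1.41, limma adjusted p = 0.232). miR-376b-3p was at 9.43, 5.71 and 4.91 against 10.5, 11.8 and 18.9 (log2 fold change 0.94, limma adjusted p = 0.307). Neither pair of groups overlapped. Each value rests on 3 to 28 reads, and the assignment of reads that match both was not given in the sources used here.

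The miR-1185 hairpins gave another pair with a shared seed, UAUACAG, whose members lay on the same side (log2 fold change −0.95 and −0.57). miR-1185-1-3p was at 18.9, 17.1 and 16.4 against 7.84, 8.45 and 9.44, with no overlap (limma adjusted p = 0.237), and miR-1185-2-3p was at 11.3, 9.51 and 13.1 against 5.23, 10.1 and 7.08, with overlap (limma adjusted p = 0.519).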
